A study of Mus musculus with 24 samples.

Results

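The 43 genes described here encode the protein folding machinery of the endoplasmic reticulum (ER) and the sensors and effectors of the unfolded protein response (UPR). They were taken from a fixed list of gene symbols, and all 43 were found among the 45513 genes of the count files. In mouse intestine, RNA was sequenced from sorted EpCAM+ tdTom+ epithelial cells in 24 libraries, 6 for each combination of tissue, small intestine (SI) or colon, and genotype. WT libraries came from Atoh1(WT)CreERT2 R26RtdTom mice and 9S/T-A libraries from Atoh1(9S/T-A)CreERT2 R26RtdTom mice, in which 9 serine or threonine sites of the transcription factor ATOH1 are alanine. Every group, controls included, carried the Cre knock-in at both copies of Atoh1 and the reporter on a C57BL/6 background, and every mouse was adult and received a single 3 mg dose of tamoxifen by intraperitoneal injection on the day before collection. The proximal part of the SI was used. Because CreERT2 is expressed from the Atoh1 locus, tdTom marks the secretory lineage, with its goblet and Paneth cells, rather than the epithelium as a whole. Gene counts do not show the amino acid changes in Atoh1, so they give no check of the genotype labels. Each group held libraries numbered 2 to 7, 3 of them female and 3 male. The study's design note gives 6 mice in all with both tissues taken from every animal, while the labels show 2 genotypes with 6 libraries per tissue and do not say which libraries came from the same mouse. SI and colon libraries of the same number may therefore share a mouse. The p-values measure the spread between these libraries without pairing, and those with the replicate number as a block are given where they change a call.

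Secretory cells push large amounts of mucin or antimicrobial protein through the ER. When unfolded protein builds up there, the sensors IRE1 (genes Ern1 and Ern2), PERK (Eif2ak3) and ATF6 signal to the nucleus through spliced XBP1, ATF4 and cleaved ATF6, which raise transcription of chaperones, disulfide isomerases and the ER-associated degradation (ERAD) machinery. IRE1β, the product of Ern2, is restricted to mucosal epithelia, and XBP1 is required for normal Paneth and goblet cells. Gene counts show neither the splicing of Xbp1 nor the activation of the sensor proteins.

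ATF6 and XBP1 act on the ER stress response element (ERSE), which couples a binding site for the factor NF-Y (CCAAT) to CCACG over a fixed gap. RefSeq promoter sequences (GRCm38.p6, from 250 bases before to 50 after the gene start) were listed for 36 of the 43 genes. Ern2, Atf6, Hyou1, Manf, Derl1, Sec61a1 and Ssr2 had none. The ERSE, searched on both strands as CCAAT, 9 bases of any kind and CCACG, was found in 10 of the 36 promoters, or 27.8%, and in 37 of all 27025 genes with a listed promoter, or 0.137%. ERSE-II, searched on both strands as ATTGG, 1 base of any kind and CCACG, was found in 2 of the 36 (5.56%) and in 12 of the 27025 genes (0.0444%). ERSE-II uses the same CCACG, with the CCAAT box on the opposite strand. The elements were chosen after the fits were seen. The list holds UPR genes, and ATF6 and XBP1 act through these elements, so the higher shares are not an independent result. The matches are shown as a description of the genes. They are written 5′ to 3′ on the strand on which the element reads forward, with the element in capitals and 5 bases of context on each side. The chaperones and their cofactors held these matches:

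Hspa5 (chr2:34772020-34772048, + strand): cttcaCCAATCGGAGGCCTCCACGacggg
Hsp90b1, nearer the start (chr10:86705528-86705556, + strand): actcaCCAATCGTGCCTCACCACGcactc
Hsp90b1, farther from it (chr10:86705633-86705661, - strand): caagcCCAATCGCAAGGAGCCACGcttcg
Dnajc3 (chr14:118937822-118937850, + strand): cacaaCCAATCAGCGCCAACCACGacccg
Creld2 (chr15:88819515-88819543, - strand): gtggaCCAATTGAGGCTCGCCACGagaag
Calr (chr8:84847070-84847098, + strand): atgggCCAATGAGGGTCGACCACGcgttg
Canx (chr11:50325795-50325823, - strand): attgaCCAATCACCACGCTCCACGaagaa
Dnajb11, ERSE-II (chr16:22857847-22857867, + strand): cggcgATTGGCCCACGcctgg

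The disulfide enzymes and the ERAD genes held these:

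Pdia6 (chr12:17266486-17266514, + strand): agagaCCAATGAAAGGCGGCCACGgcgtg
Ero1lb (chr13:12565677-12565705, - strand): ggcggCCAATGAGGCGGGACCACGaggcc
Derl3 (chr10:75893237-75893265, - strand): gctagCCAATGGGGAAGTCCCACGgtaga
Syvn1 (chr19:6046527-6046555, + strand): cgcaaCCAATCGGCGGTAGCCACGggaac
Herpud1, ERSE-II (chr8:94386372-94386392, + strand): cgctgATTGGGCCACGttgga

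The 11 ERSE matches lay between 25 and 193 bases before the RefSeq start, the closest in Syvn1 and the farthest in Hsp90b1, and the Dnajb11 match lay 7 bases after it. For Dnajc3, unlike the other matches, the bases after the listed start were not found near the start of any GENCODE transcript of the gene. The distance of the Dnajc3 match from the start is therefore less certain. No promoter of the 36 held TGACGTGG (an XBP1 element, 0.714% of all genes), TGATGNAAT (a CCAAT-enhancer and ATF element, 1.08%) or TGACGTCA (a cyclic AMP response element, 2.03%), each searched on both strands. A match is a description of the letters and not a measured binding site, and no match says only that these letters are not in the window.

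The libraries held 35967875 to 65796932 counts, and the 43 genes took 0.812 to 1.61% of them. The 20 most abundant genes took 37.2 to 44.8% of the counts in SI and 12.3 to 19.4% in colon. All 10 goblet markers were detected in every library of every group. So were all 8 enteroendocrine, 6 stem and 8 cycling markers, so detection alone does not show the cell type. The summed level of 10 Paneth markers was 48950 to 103400 CPM (counts per 1000000) in SI and 465.1 to 2233 CPM in colon. That of 8 absorptive markers was 1276 to 4123 CPM in SI and 292.7 to 626.4 CPM in colon. These genes went both ways, so their sum depends on the genes chosen. Mean Apoa1 was 758.4 CPM in WT SI and 0.946 CPM in WT colon, and mean Car1 0.711 and 298.5 CPM. CPM here is scaled by edgeR's trimmed mean of M-values (TMM) over the 24 libraries, so a library's values need not add up to the usual total. In these bulk samples, fewer cells of a type and less RNA per cell cannot be told apart.

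Compared per kilobase of counted exon, the 43 genes spanned a wide range. P4hb, the classical protein disulfide isomerase, was the highest in all 4 groups, at 656.5 ± 38.1 CPM per kb (SD, n = 6) in WT SI and 448.0 ± 54.4 in WT colon. In WT SI it was followed by the lectin chaperone Calr at 392.1 ± 52.6, the glycoprotein disulfide isomerase Pdia3 at 296.7 ± 39.5 and the Hsp70 chaperone Hspa5 (BiP) at 273.3 ± 57.8 CPM per kb, and these also made up the top 4 in the other groups. Hspa5 and Pdia3 in WT SI differed by less than their SDs. Pdia5 moved most in this order, from place 23 in WT SI to place 5 in both colon groups, with 142.6 ± 17.1 CPM per kb in WT colon against 51.1 ± 12.2 in WT SI.

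As a sum, the 43 genes had 12760 ± 1130 CPM in WT SI, 12850 ± 1510 in 9S/T-A SI, 10100 ± 1070 in WT colon and 10900 ± 1670 in 9S/T-A colon (SD, n = 6 each). The order of the tissues in this sum depended on the scaling: with plain library totals it was 10370 CPM in WT SI and 13060 in WT colon. The shares of the sum changed less. Disulfide isomerases and oxidases made up 28.5% of it in WT SI and 30.5% in WT colon, Hsp70 and Hsp90 chaperones with their cofactors 25.3% and 22.8%, translocon genes 13.0% and 13.6%, and lectin chaperones 12.0% and 12.1%.

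The comparison of 9S/T-A with WT asks whether removing the phosphorylation sites of ATOH1 changes the secretory cells. In SI, 1 of the 43 genes was called (adjusted p under 0.05 in edgeR's quasi-likelihood test over all 16236 genes tested), and 1.94% of all genes tested were called, 0.905% as lower. The gene was Derl3, a derlin of the ERAD channel that is typical of secretory cells (chromosome 10, 75893398 to 75895941, GRCm38, + strand), and it was lower in 9S/T-A. The median log2 fold change of the 43 was 0.01, beside 0.00 for all genes, with 22 positive and 21 negative. With plain library totals in place of TMM 7 were positive, and the median of all genes was then -0.11 and that of the 43 -0.12. The 95% interval of the log2 fold change lay within -0.5 to 0.5 for 34 of the 43.

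Derl3 was a low gene. In WT SI the lowest, median and highest library had 1.78, 3.18 and 7.73 CPM, and in 9S/T-A SI 1.12, 1.37 and 1.76 CPM, from 74 to 242 and from 50 to 68 counts per library. Every 9S/T-A library lay below every WT library, though the nearest were close. Over all genes tested in SI, 0.992% separated in this direction and 1.08% in the other. Number 7 of WT stood far above the rest of its group. That library also had the most Hspa5 of WT SI, 1554 CPM. The log2 fold change was -1.36 ± 0.296 (SE, adjusted p = 0.0289). Without number 7 of WT it was -1.01 (adjusted p = 0.0179). The call was lost, with adjusted p of 0.0506 to 0.0739 and log2 fold changes of -1.31 to -1.43, without number 3 or 6 of WT or without number 3, 4, 5, 6 or 7 of 9S/T-A. With the replicate number as a block it was lost too (-1.24, adjusted p = 0.0573), while 2.94% of all genes were called.

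Derl3 is also strongly expressed in plasma cells, so the 10 markers fixed for plasma and B cells stand beside it. Their summed level was 66.6 to 327.4 CPM in WT SI (median 186.0) and 45.5 to 136.2 CPM in 9S/T-A SI (median 52.0), and 6 of the 10 passed the filter on low counts, all 6 with a negative log2 fold change and none called. Igha had 12.7 to 182 CPM in WT SI (median 91.2) and a median of 4.12 CPM in 9S/T-A SI, with a log2 fold change of -2.06. The light chain gene Igkc had medians of 31.2 and 1.93 CPM (-2.32). The joining chain gene Jchain had medians of 6.83 and 0.317 CPM (-1.71). The highest Derl3 library, number 7 of WT, held the lowest Igha (12.7 CPM) of the WT libraries. Among the other WT libraries, number 2 had the least Derl3 (1.78 CPM) and the least Igha (33.7 CPM). Number 3 had the most of both among them (3.46 and 182 CPM). The highest Igha library of 9S/T-A, number 6 with 65.5 CPM, had 1.17 CPM of Derl3, within the 9S/T-A range. Mzb1, a plasma cell chaperone, was at most 0.31 CPM in any SI library, and the receptor gene Tnfrsf17 was at 0 in every 9S/T-A SI library and in 3 of WT. Paneth markers moved in the same direction, with 5 of 10 called lower in 9S/T-A SI. The median log2 fold change was also negative for tuft (-1.05, 1 called), enteroendocrine (-0.69), cycling (-0.37) and stem markers (-0.13). It was positive for goblet (0.27) and absorptive markers (0.39), and apart from Paneth and tuft none of these was called. The part of these cells in the Derl3 difference was not tested.

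**Figure D1:**
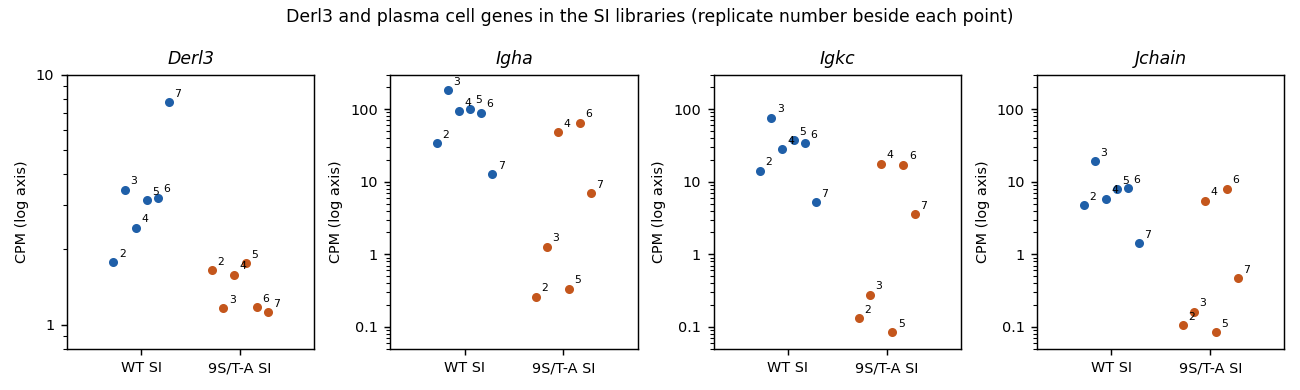
Level of Derl3 and of the plasma cell genes Igha, Igkc and Jchain in the 12 SI libraries, in TMM-scaled CPM on a log axis, with the replicate number beside each point. Derl3 did not overlap between WT (1.78 to 7.73 CPM) and 9S/T-A (1.12 to 1.76 CPM), while Igha overlapped (12.7 to 182 CPM and 0.262 to 65.5 CPM). Over all genes tested in SI, 0.992% were lower in 9S/T-A without overlap.

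The stress sensors did not pass the test in SI. Ern1 had 62.1, 71.1 and 82.1 (lowest, median, highest) in WT against 75.9, 80.5 and 83.3 CPM in 9S/T-A, overlapping groups with a log2 fold change of 0.17 ± 0.069 (adjusted p = 0.254). Ern2, its mucosal counterpart, had 153.3, 184.5 and 310.4 in WT against 176.6, 206.0 and 351.5 CPM in 9S/T-A (0.18 ± 0.189, adjusted p = 0.695). Eif2ak3, which encodes the eIF2α kinase PERK, had 89.3, 104.0 and 131.5 in WT against 89.3, 118.2 and 158.0 CPM in 9S/T-A (0.22 ± 0.144, adjusted p = 0.498). Atf6 showed medians of 69.4 in WT against 68.6 CPM in 9S/T-A (-0.06 ± 0.075, adjusted p = 0.732). All 4 sensors overlapped between the genotypes.

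Among the response factors in SI, Xbp1 came closest to separating the genotypes. It had 454.7, 473.7 and 498.7 in WT against 452.9, 543.7 and 547.4 CPM in 9S/T-A, where 5 of the 6 libraries lay above all of WT and number 2 lay below. Its log2 fold change was 0.15 ± 0.070, with an interval of 0.01 to 0.29 and an adjusted p of 0.318. Atf4, the translationally controlled effector of PERK, had 315.1, 344.2 and 421.9 in WT against 343.7, 401.3 and 476.4 CPM in 9S/T-A (0.20 ± 0.093, adjusted p = 0.306). Ddit3 (CHOP), its pro-apoptotic target, had medians of 39.7 and 44.4 CPM (0.03 ± 0.114, adjusted p = 0.937). Hspa5, the most used readout of the UPR, had 919.9, 1077 and 1554 in WT against 857.4, 1065 and 1609 CPM in 9S/T-A (-0.05 ± 0.162, adjusted p = 0.921). The remaining genes, from the chaperones to the translocon, had log2 fold changes of -0.29 (Creld2) to 0.17 (Sec61g) in SI.

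In colon, none of the 43 genes was called by edgeR, where 0.318% of the 16997 genes tested were called, and none by DESeq2, which called 1.12% of all genes. At an unadjusted p under 0.05 there were 3, the E3 ligase gene Syvn1, Eif2ak3 and the oxidase gene Ero1lb, which is 6.98% of the 43 beside 8.81% of all genes. Of the log2 fold changes, 39 of the 43 were positive, with a median of 0.12, beside 51.7% positive and a median of 0.00 over all genes tested. With plain totals 36 were positive, with medians of 0.08 and -0.03. With TMM, all 10 Hsp70 and Hsp90 chaperones and cofactors, all 7 disulfide enzymes, both lectin chaperones and all 4 sensors had positive values, and the 4 negative ones were Ddit3, Atf3, Ssr4 and Derl2. The 43 values are not independent, since many of the genes moved together between libraries of a group, so the count of positive values is a description. The cycling cell markers were also all positive in colon (8 of 8, median 0.46, none called), as were 9 of 10 goblet markers (median 0.25, 1 called), and their part in the values of the 43 was not tested.

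Eif2ak3 was the gene of the 43 nearest to a call in colon. It had 55.1, 67.9 and 70.2 in WT against 62.9, 76.7 and 90.2 CPM in 9S/T-A, and the groups overlapped. Its log2 fold change was 0.25 ± 0.076 (adjusted p = 0.27), and with the replicate number as a block it was called (0.25, adjusted p = 0.0344), as 2.27% of all genes then were. Derl3, the gene called in SI, had medians of 0.554 in WT colon against 0.628 CPM in 9S/T-A colon (0.11 ± 0.242, adjusted p = 1).

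The remaining sensors and factors overlapped between the genotypes in colon. Xbp1 had 331.8, 375.6 and 396.5 in WT against 350.3, 386.9 and 432.2 CPM in 9S/T-A (0.10 ± 0.066, adjusted p = 0.764). Hspa5 had 666.0, 836.2 and 1076 in WT against 667.2, 901.2 and 1418 CPM in 9S/T-A (0.19 ± 0.157, adjusted p = 0.887). Ern1, Ern2, Atf6 and Atf4 had log2 fold changes of 0.11 ± 0.082, 0.05 ± 0.157, 0.14 ± 0.108 and 0.03 ± 0.097, and Ddit3 had -0.15 ± 0.141, with adjusted p of 0.841 or more.

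**Figure D2:**
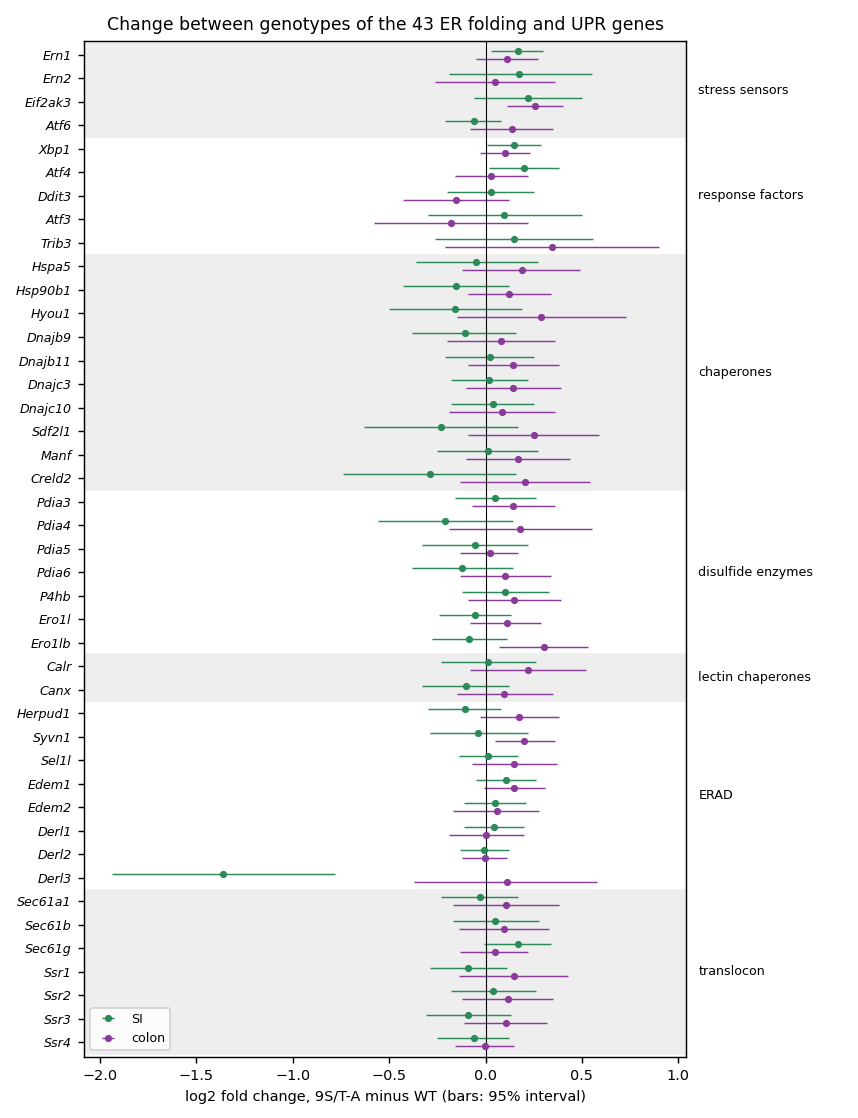
Log2 fold change of 9S/T-A minus WT from edgeR for the 43 genes, grouped by role, in SI and in colon, with 95% intervals. In SI the values scatter around 0 except for Derl3 at -1.36, and in colon 39 of the 43 lie above 0 (36 with plain totals) without any being called.

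The difference between these genotype effects was tested as an interaction over the 24 libraries. By edgeR none of the 43 was called, with 0.412% of 17953 genes called. An unadjusted p under 0.05 was found for 2 of the 43 (4.65%), beside 9.69% of all genes. The smallest p belonged to Derl3, whose genotype effect in colon minus that in SI was 1.45 ± 0.395 (log2, adjusted p = 0.121). DESeq2, which called 1.44% of all genes, called it alone among the 43 (1.44, adjusted p = 0.0286), and edgeR called it without number 2 of WT SI (1.60, adjusted p = 0.0423). Ero1lb followed with 0.37 ± 0.160 (adjusted p = 0.422) and the ERAD gene Herpud1 with 0.27 ± 0.152 (adjusted p = 0.641).

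The tissue comparison asks how the secretory cells of colon differ from those of SI. In WT, 33 of the 43 genes were called by edgeR, 32 lower and 1 higher in colon, while 63.6% of the 16979 genes tested were called, 30.4% lower and 33.1% higher, and with plain library totals the split of the 43 turned to 6 lower and 20 higher, beside 11.2% and 72.1% of all genes. That scaling moved the median of all genes from 0.03 to 0.74 on the log2 scale. Relative to the median of all genes, the median of the 43 was lower by nearly the same amount either way, -0.46 with TMM and -0.48 with plain totals, and 38 of the 43 lay below the all-gene median under both. The 5 above it were the same under both, namely Ern1, Ern2, Pdia3, Pdia5 and Sec61b. A change of scaling moves the log2 fold changes of all genes by nearly the same amount, so this likeness was fixed in advance. With TMM the libraries of the tissues did not overlap for 18 of the 43 that were lower and 1 that was higher in colon, beside 19.6% and 23.9% of all genes. With the replicate number as a block 35 were called, 33 lower and 2 higher, beside 69% of all genes, the additions being Ern2 (0.19, higher, adjusted p = 0.0275) and Canx (-0.23, lower, adjusted p = 0.0403).

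Markers of several cell types also moved between the tissues with TMM. All 10 Paneth markers were called lower in WT colon (median -9.49), as were all 8 enteroendocrine (-2.32), all 8 cycling (-1.21) and all 5 tested tuft markers (-2.33). Of 10 goblet markers 6 were lower and 2 higher (-1.13), of 8 absorptive markers 5 and 2 (-4.48), of 6 stem markers 4 and 1 (-0.69) and of 6 tested plasma and B cell markers 5 and 1 (-6.18). Of 8 immediate early and dissociation genes 5 were lower (-0.48), and of 7 cytosolic heat shock genes 3 were lower and 1 higher (-0.20). In 9S/T-A, 8 of 10 Paneth markers were called lower and 1 higher, and of 10 goblet markers 6 and 1. Of 8 absorptive markers 5 were lower and 2 higher, of 6 stem markers 3 and 1, and of 5 tested plasma and B cell markers 4 and 1. Called lower with none higher were 7 of 8 enteroendocrine, 3 of 8 cycling and 5 of 5 tested tuft markers. So were 8 of 8 immediate early and dissociation genes and 1 of 7 cytosolic heat shock genes. The part of these cells and states in the values of the 43 was not tested.

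In 9S/T-A, 22 of the 43 were called, 21 lower and 1 higher in colon, beside 60.9% of all genes tested, 28% lower and 32.9% higher, and plain totals turned this to 4 lower and 28 higher, beside 9.76% and 74.1% of all genes. The median of the 43 less that of all genes was -0.41 under both scalings, a likeness that was again fixed in advance. With TMM the libraries of the tissues did not overlap for 12 of the 43 that were lower and 1 that was higher, beside 18.4% and 22.7% of all genes. With the block 26 were called, 24 lower and 2 higher, beside 68.7% of all genes. It added Herpud1 as higher (0.21, adjusted p = 0.0474), and as lower Hyou1, Creld2 and Sdf2l1 (-0.415 to -0.353, adjusted p of 0.0143 to 0.0289), and no call was lost in either genotype. The 6 genes with the largest falls in WT and Pdia5 were called in the same direction in 9S/T-A with TMM.

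Trib3, a pseudokinase induced through ATF4 and CHOP that feeds back on the response, differed most (chromosome 2, 152337422 to 152344032, - strand). It had 5.36, 7.24 and 11.2 CPM in WT SI against 0.182, 0.322 and 0.501 CPM in WT colon, groups that lay far apart, with 12 to 32 counts per library in WT colon. The log2 fold change of colon against SI was -4.62 ± 0.276 in WT (adjusted p = 9.47e-10) and -4.44 ± 0.220 in 9S/T-A (adjusted p = 1.67e-10). With plain totals it was -3.90 and -3.65. Ddit3, upstream of it, had 33.5, 39.7 and 56.0 CPM in WT SI and 12.6, 16.3 and 18.2 CPM in WT colon, without overlap. Its log2 fold change was -1.45 ± 0.129 in WT and -1.65 ± 0.123 in 9S/T-A, and -0.74 and -0.82 with plain totals, called in each.

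Both ER oxidases, which recharge the disulfide isomerases, were lower in colon with TMM in both genotypes. Ero1lb had 29.5, 31.1 and 36.7 CPM in WT SI and 7.57, 8.24 and 10.5 CPM in WT colon, without overlap (log2 fold change -1.95 ± 0.094, adjusted p = 8.1e-11). Ero1l had 71.0, 82.6 and 99.3 CPM in WT SI and 35.6, 40.3 and 52.0 CPM in WT colon, again without overlap (-1.03 ± 0.104, adjusted p = 4.31e-07). The log2 ratio of Ero1lb to Ero1l within a library, which no library scaling moves, was -1.39 ± 0.19 (SD, n = 6) in WT SI and -2.30 ± 0.30 in WT colon, and -1.43 ± 0.30 and -2.12 ± 0.22 in the 9S/T-A groups. With plain totals Ero1lb was -1.23 in WT and -0.78 in 9S/T-A, and Ero1l was -0.32 in WT and -0.08, not called, in 9S/T-A.

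Pdia5 was the exception among the disulfide isomerases and the only gene of the 43 called higher in colon with TMM and no block (chromosome 16, 35397313 to 35490873, - strand). It had 64.7, 91.0 and 119.9 CPM in WT SI and 207.0, 261.9 and 301.7 CPM in WT colon, and 75.5, 89.7 and 100.6 CPM against 228.2, 265.1 and 275.8 CPM in 9S/T-A. Every colon library lay above every SI library. The log2 fold change was 1.44 ± 0.145 in WT (adjusted p = 3.98e-07) and 1.503 ± 0.090 in 9S/T-A (adjusted p = 1.43e-09). The log2 ratio of Pdia5 to P4hb was -4.38 ± 0.36 in WT SI and -2.31 ± 0.08 in WT colon. P4hb itself was at -0.585 in WT on the log2 scale with TMM, and it had 0.12 and no call with plain totals. Pdia3 was at 0.06 ± 0.117 with TMM, and Pdia4 and Pdia6 were lower in WT colon with TMM (-0.35 and -0.33) but higher with plain totals (0.35 and 0.36), and in 9S/T-A they were not called with TMM and higher with plain totals (0.81 and 0.67).

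In the ERAD machinery, 7 of 8 genes were lower in colon with TMM in each genotype, all but Herpud1, whereas with plain totals Derl1, Derl2 and Herpud1 were called higher in both genotypes, Edem1 and Syvn1 higher in 9S/T-A, and only Sel1l lower in both. Derl3 had 0.378, 0.554 and 0.798 CPM in WT colon, against the 1.78 to 7.73 CPM of WT SI (log2 fold change -2.73 ± 0.319, adjusted p = 2.24e-06, and -2.05 with plain totals). In 9S/T-A, with less of it in SI, the tissue difference was -1.28 ± 0.228 (adjusted p = 0.000179), and it was -0.46 and not called with plain totals. Sel1l, the scaffold of the HRD1 ligase, had 154.8, 177.4 and 190.6 CPM in WT SI and 65.7, 81.0 and 96.6 CPM in WT colon, without overlap. Its log2 fold change was -1.18 ± 0.099 in WT and -1.06 ± 0.109 in 9S/T-A, and -0.46 and -0.26 with plain totals, called lower in all. The ratio of Derl3 to its family member Derl2 was -4.05 ± 0.74 in WT SI, -5.28 ± 0.27 in 9S/T-A SI, -6.36 ± 0.39 in WT colon and -6.27 ± 0.52 in 9S/T-A colon (log2).

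The direction of the chaperones depended on the scaling. With TMM, all 10 Hsp70 and Hsp90 chaperones and cofactors were called lower in WT colon, from -0.30 (Dnajb11) to -0.88 (Sdf2l1), with a median of -0.58. In 9S/T-A 4 of them were (Dnajb9, Dnajc3, Dnajc10 and Manf), and 7 with the block. None was called lower with plain totals, under which Dnajb11 was higher in both genotypes and Hspa5, Hsp90b1, Dnajc3, Dnajc10 and Manf were higher in 9S/T-A. Hspa5 was -0.48 ± 0.145 in WT (adjusted p = 0.00872) and -0.26 ± 0.182 in 9S/T-A (adjusted p = 0.225), and with plain totals it was 0.21 (adjusted p = 0.207) and 0.53 (adjusted p = 0.00502). Of the lectin chaperones, Calr was called lower in WT with TMM (-0.41 ± 0.132) and Canx in WT with the block alone, while with plain totals Canx was called higher in both genotypes and Calr in 9S/T-A. Of the 7 translocon genes, which form and assist the protein-conducting channel, 4 were lower in WT colon with TMM (Sec61a1, Ssr1, Ssr2 and Ssr3) and 2 in 9S/T-A (Ssr2 and Sec61g), but none with plain totals, where all but Ssr2 were called higher in both genotypes and Ssr2 in 9S/T-A.

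The sensors differed among themselves in the tissue comparison. Ern1, Ern2 and Atf6 were not called in either genotype with TMM (log2 fold changes of -0.09 to 0.17), apart from Ern2 in WT with the block as given above, whereas Eif2ak3 was lower in colon in both (-0.73 ± 0.099 and -0.71 ± 0.140). The log2 ratio of Ern2 to Ern1 was 1.43 ± 0.25 in WT SI and 1.47 ± 0.29 in WT colon, a difference smaller than the SDs. Of the factors, Xbp1 was -0.39 ± 0.071 in WT and -0.45 ± 0.087 in 9S/T-A, and Atf4 was -0.64 ± 0.094 and -0.83 ± 0.101, all called with TMM. With plain totals Eif2ak3 (-0.01 and 0.10) and Atf4 (0.08 and -0.01) were not called, and Xbp1 (0.32 and 0.35), Ern1, Ern2 and Atf6 were called higher in colon.

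**Figure D3:**
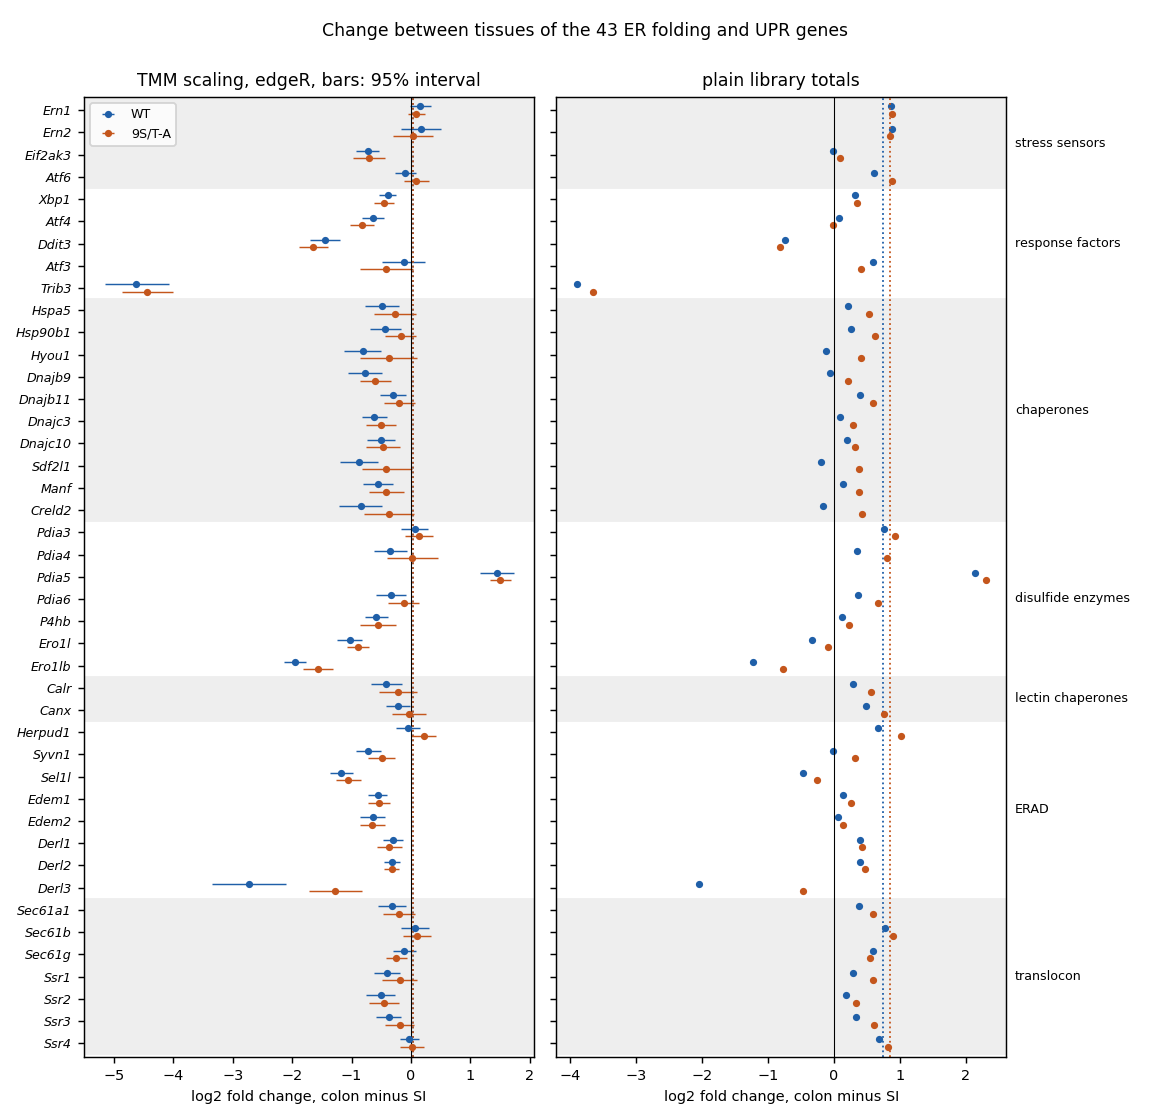
Log2 fold change of colon minus SI for the 43 genes by role, in WT and 9S/T-A, with TMM scaling and 95% intervals on the left and with plain library totals on the right, dotted lines marking the median of all genes tested. Most genes lie below 0 on the left and above 0 on the right, so their direction depends on the scaling. In WT 38 of the 43 lie below the dotted line in both panels, Trib3 lowest and Pdia5 highest. This holds in both because a change of scaling moves all genes and the line by nearly the same amount.

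**Figure D4:**
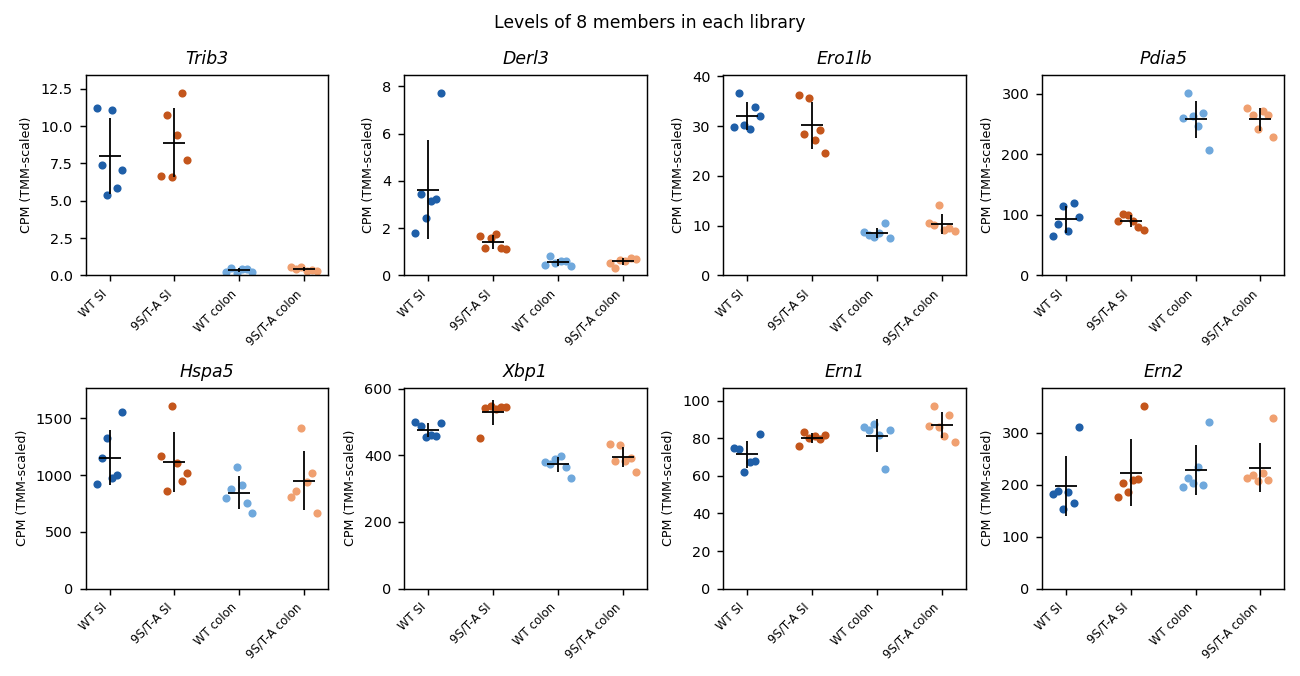
TMM-scaled CPM of 8 genes in each library of the 4 groups, with the mean and SD (n = 6) in black. Trib3, Derl3 and Ero1lb are lower and Pdia5 is higher in every colon library than in any SI library of the same genotype, while Ern1 and Ern2 overlap, and the highest Ern2 library of each group is number 7.

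Genes with and without an ERSE or ERSE-II match are set side by side here as a description. In the WT tissue comparison with TMM the 12 with a match had a median log2 fold change of -0.46 and the 24 without a match also -0.46. Of these, 10 and 17 were called lower, beside 30.4% of all genes tested. In 9S/T-A these medians were -0.24 and -0.43, with 4 of 12 and 14 of 24 called lower. In SI, 9S/T-A against WT gave medians of -0.09 with and 0.04 without a match, and in colon 0.16 and 0.10. All 12 with a match had positive values in colon, between 0.10 and 0.30. The 24 without a match lay between -0.18 and 0.35 there, and all but Ddit3, Atf3, Ssr4 and Derl2 were positive too. No gene of either set was called in colon, so the positive sign was not particular to the genes with a match.

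The chaperone genes varied together between libraries of the same group. Hspa5 ranged from 857.4 CPM in number 3 to 1609 CPM in number 4 of 9S/T-A SI, and Hyou1, an Hsp110-type chaperone, from 179.6 to 416.7 CPM in the same libraries. In 9S/T-A colon, number 4 was the highest and number 7 the lowest library for both genes, with 1418 and 667.2 CPM of Hspa5 and 376.0 and 125.8 CPM of Hyou1. Of the 43 genes, 39 lay above their group's mean in number 4 of 9S/T-A colon and 38 in number 4 of 9S/T-A SI, against 5 and 6 in number 7 of 9S/T-A colon and WT colon.

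Taken as deviations from the group mean of log2(CPM + 0.5), 9 genes followed Hspa5 with a Pearson r above 0.8 over the 24 libraries, namely Hyou1 (0.95), Pdia4, Creld2, Manf, Dnajb11, Sdf2l1, Dnajc3, Hsp90b1 and Edem1 (0.81). Spearman's rho for these 9 was 0.75 to 0.93, and r was 0.73 to 0.92 without the 2 libraries in which Hspa5 lay farthest from the median. The median r over the 903 pairs of the 43 genes was 0.42, beside 0.00 over all pairs of genes tested. These values describe libraries that share a scaling factor and, for equal numbers, the sex. Trib3 (-0.32), Atf4 (-0.21), Ern2 (-0.20) and Ddit3 (-0.11) did not follow Hspa5.

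In each of the 4 groups the highest library for Ern2 was number 7, with 310.4 CPM in WT SI, 351.5 in 9S/T-A SI, 321.4 in WT colon and 329.4 in 9S/T-A colon. These were 1.70, 1.73, 1.58 and 1.55 times the median of the other 5 libraries of the group. Ern1 in number 7 was at 0.902 to 1.21 times its own median over those 5 libraries, and the ratio of Ern2 to Ern1 reached 1.92 to 2.11 (log2) as its highest value in each group against medians of 1.28 to 1.42. Manf and Ssr4 were the other genes of the 43 with the same number highest in all 4 groups (4 and 3). P4hb and Derl1 were lowest in number 7 of all 4 groups, at 0.631 to 0.885 and 0.686 to 0.920 times the median of the others, and Syvn1 was lowest in number 2. Over all genes tested, the number 7 libraries also deviated together most, with correlations of 0.456 to 0.743 in the 4 comparisons, beside -0.009 to 0.311 for the other numbers.

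**Figure D5:**
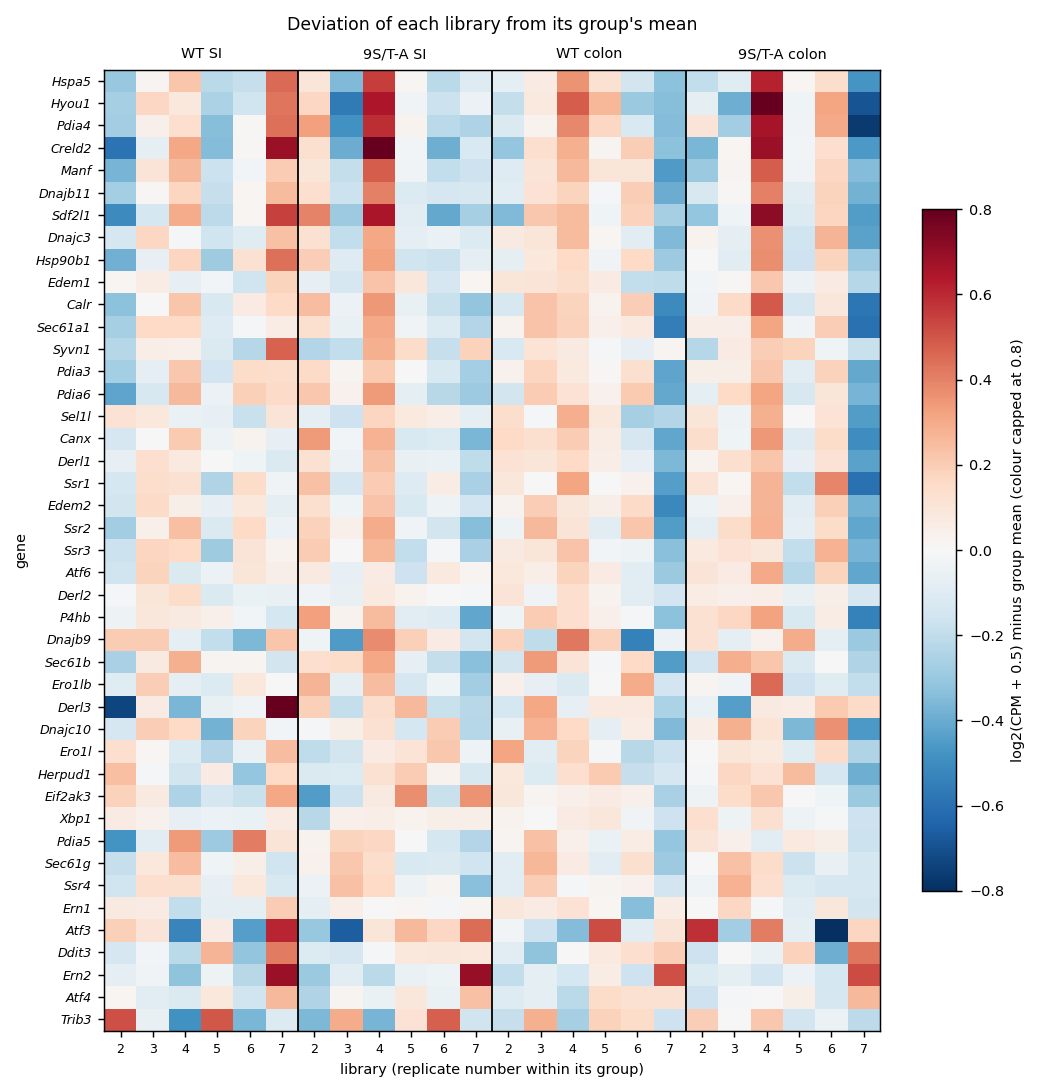
Deviation of log2(CPM + 0.5) from the group mean for the 43 genes (rows, ordered by their correlation with Hspa5) in the 24 libraries (columns, by group and replicate number), red above and blue below the mean. The chaperone rows at the top share their colours, as in number 4 of both 9S/T-A groups, and the Ern2 row near the bottom is red in number 7 of every group.

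Other genes of the pathway were read in the same fits from 6 lists of 105 genes. In SI, 1 of the 103 tested was called (0.971%), beside 1.94% of all genes. It was Pdia2, a disulfide isomerase best known from pancreas, at 1.56 ± 0.467 CPM in WT against 0.629 ± 0.298 CPM in 9S/T-A (SD, n = 6, with a log2 fold change of -1.32 ± 0.297, edgeR adjusted p = 0.0352). Of 12 pancreatic acinar markers, 5 passed the filter in SI and none was called there. In colon none of 103 was called by edgeR or DESeq2. An unadjusted p under 0.05 by edgeR was found for 9 (8.74%), beside 8.81% of all genes. With the replicate number as a block 4 of the 103 were called, beside 2.27% of all genes. All 4 came from the list of ATF4 and integrated stress response targets and were higher in 9S/T-A: Mthfd2 (0.48, adjusted p = 0.0215), Asns (0.36, 0.0214), Slc3a2 (0.25, 0.0315) and Aars (0.28, 0.0289). They encode a mitochondrial folate enzyme, asparagine synthetase, an amino acid transporter chain and alanyl-tRNA synthetase.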

How the data were processed

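Sorted EpCAM+ tdTom+ cells were profiled by stranded mRNA sequencing in 24 libraries. Per the submitters' processing notes, TopHat2 2.1.1, Subread 1.5.2 and DESeq2 1.14.1 were used with GRCm38.p3. The authors deposited raw counts per Ensembl gene, not normalized; per the file headers featureCounts counted reads over exons by strand from primary alignments only, which leaves a multi-mapping read at 1 place and makes genes with close copies uncertain. Symbols came from GENCODE M21, which named 97.96% of genes. No 2 libraries of a group were identical (60 pairs).

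Each comparison used edgeR 4.0.16 (R 4.3.3; filterByExpr, TMM, quasi-likelihood test, two-sided, Benjamini-Hochberg over all genes tested, threshold 0.05) on the libraries of the groups compared, and the interaction used all 24. All 43 genes passed the filter in every fit. Intervals are the log2 fold change ± 1.96 SE. Alternatives were DESeq2 1.42.0, other scalings, filters and thresholds, sex, a joint fit, a replicate block and leaving out libraries. The test was checked on simulated data.

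The genes, lists and tests were chosen with earlier results of these data known. Full values are given for genes called by genotype with or without the block, the main sensors and factors, the largest tissue changes (6 falls and the only rise) and the 3 smallest interaction p-values. The promoter elements, the leave-out of number 7, the within-group patterns and plain totals for the other pathway genes were chosen after values were seen.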

Additional observations from a re-analysis of the deposited data

Results flagged for a closer look

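The 15 genes given with full values were examined in the 4 groups of 6 libraries for a single library that stood apart (Dixon's test at the 95% level). This marked 9 of the 60, or 15 of 172 (8.72%) over all 43 genes, where chance gives about 1 in 20. Of the 9, 4 were Ern2 in number 7, which reached 310.4 CPM among the WT libraries of SI (next library 188.6) and 351.5 CPM among those of 9S/T-A (210.8). Among the colon libraries it reached 321.4 CPM for WT (233.4) and 329.4 CPM for 9S/T-A (222.6). Derl3 in number 7 of WT SI was at 7.73 CPM (next 3.46). Xbp1 in number 2 of 9S/T-A SI was the lowest of its group at 452.9 CPM (next 538.3). In WT colon, Ern1 was the lowest in number 6 at 63.7 CPM (next 82.0), and Eif2ak3 in number 7 at 55.1 CPM (next 66.9). Ero1lb in number 4 of 9S/T-A colon was the highest at 14.2 CPM (next 10.4).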

How the results depend on the processing

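The number of the 43 genes called by genotype was 0 with a replicate block in SI and 0 to 1 over the fits without a single library (none in 7 of 12), and in colon 1 with the block and 0 without any library. The interaction gave 1 with DESeq2 and 0 to 1 without a single library. For tissue, plain totals gave 26 calls in WT (20 higher, 6 lower) and 32 in 9S/T-A (28 higher, 4 lower), the reverse of the TMM direction, and the fits without a library gave 29 to 33 and 20 to 26. Summed levels with plain totals were 10370 CPM in WT SI, 9592 in 9S/T-A SI, 13060 in WT colon and 13840 in 9S/T-A colon. The Derl3 call in SI ended with the block. Of the tissue changes of the 43, plain totals turned the sign of 26 in WT and 27 in 9S/T-A, 9 and 10 of them called under both scalings, and ended 17 and 7 calls. Among the genes given with full values these were Xbp1 (0.32 in WT and 0.35 in 9S/T-A, called under both scalings), Atf6 in WT (0.62), Herpud1 in WT (0.66), Hspa5 (0.21 and 0.53), Atf4 (0.08 and -0.01), Eif2ak3 (-0.01 and 0.10), and in 9S/T-A Derl3 (-0.46) and Ero1l (-0.08).

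Among Derl3, Hspa5 and the main sensors and factors, the genotype values that changed sign were near 0 and never called. With plain totals these were Ddit3 in SI (-0.09) and Atf4 in colon (-0.01), and without number 7 of every group Hspa5 in SI (0.07), Derl3 in colon (-0.04) and Atf4 in colon (-0.01). Over the fits without a single library, Ern2 ranged from -0.01 to 0.35 in SI and -0.09 to 0.19 in colon, Ddit3 in SI from -0.03 to 0.12, Hspa5 in SI from -0.18 to 0.05, and Atf4 in colon from -0.04 to 0.07. By tissue, Ern2 in 9S/T-A ranged from -0.09 to 0.22, uncalled. Calls began for Ern1 (0.22) and Ern2 (0.38) in WT without number 7 of WT SI, for Ern1 (0.22) without number 6 of WT colon, for Ern2 in WT (0.22) without number 7 of every group, for Ern1 in WT (0.19) in the joint fit, and for Hspa5 in 9S/T-A (-0.40) without number 4 of colon. The causes were not tested.

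Same-numbered libraries deviated together only in part, with mean correlations of 0.144 (SI), 0.293 (colon), 0.199 (WT) and 0.263 (9S/T-A) and lowest values of -0.009, 0.017, 0.083 and 0.093. Number 7 had the highest, 0.497, 0.743, 0.456 and 0.545. Every library correlated best with its own number only between the tissues of 9S/T-A. Over all genes, SI had 315 calls, 477 with the block and 779 with DESeq2. Colon had 54, 385 and 238, and the interaction had 74, 342 and 255. Of the 43, the block called 35 by tissue in WT and 26 in 9S/T-A.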

Other observations

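Between the tissues, the ATF4 and integrated stress response targets went both ways. In WT, 13 of 18 were called lower and 4 higher in colon with TMM, beside 30.4% and 33.1% of all genes, and in 9S/T-A 11 lower and 4 higher, beside 28% and 32.9%. With plain totals these were 9 lower and 6 higher in WT and 5 lower and 8 higher in 9S/T-A. Chac1, a glutathione-degrading enzyme, had 10.7 ± 5.94 CPM in WT SI and 0.835 ± 0.255 CPM in WT colon (SD, n = 6; log2 fold change -3.71 ± 0.422). Mthfd2 and Psat1, of folate and serine metabolism, were both at -2.11. Stc2, a secreted glycoprotein gene, went the other way, with 0.252 ± 0.161 CPM in WT SI and 35.2 ± 4.39 CPM in WT colon (7.05 ± 0.236).

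Among other UPR regulators, the ER-anchored factor gene Creb3l3 had 55.4 ± 19.5 CPM in WT SI and 0.202 ± 0.0776 CPM in WT colon (-8.12 ± 0.295), and Creb3l1, a goblet cell factor, 239.8 ± 7.28 and 606.4 ± 83.0 CPM (1.30 ± 0.095). Bhlha15 (MIST1), a secretory cell factor, was at -2.17 ± 0.180. These genes were chosen after their values were seen, and these changes are on the TMM scale. With plain totals they kept their sign in WT, with -2.97 for Chac1, -1.40 for Mthfd2, -1.41 for Psat1, 7.77 for Stc2, -7.40 for Creb3l3, 2.01 for Creb3l1 and -1.47 for Bhlha15.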
